A study of Homo sapiens with 6 samples.

Results

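The 9 genes described here make up the core of MHC class I antigen presentation: the heavy chain genes HLA-B, HLA-C and HLA-E, the light chain gene B2M, the peptide transporter genes TAP1 and TAP2, the loading factor gene TAPBP and the trimming enzyme genes ERAP1 and ERAP2. They were taken by symbol for their known role, with earlier results of these data known, and all 9 were present among the 24054 genes of the deposited count table. RNA was sequenced from A2780, a human ovarian cancer cell line whose genotype the labels give as WT, in 3 samples treated with SCR-6920 at 1 µM for 48 h and 3 control samples kept in DMSO, the solvent, for as long. Per the title of the series, SCR-6920 inhibits PRMT5, the arginine methyltransferase that places most symmetric dimethyl marks on histones and splicing proteins. The series holds no other cell line and no other dose, and whether the replicates are separate cultures is not stated, so p-values measure the spread between these samples, which may be technical.

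Class I molecules carry short peptides from inside the cell to its surface, where T cells and natural killer cells read them. The proteasome and cytosolic peptidases cut proteins into peptides, the TAP1-TAP2 dimer pumps these into the endoplasmic reticulum, ERAP1 and ERAP2 shorten them, and tapasin, the product of TAPBP, holds an empty heavy chain with its light chain B2M at the transporter until a peptide binds. HLA-B and HLA-C present to CD8 T cells and to killer receptors, whereas HLA-E mainly shows leader peptides of other class I chains to the natural killer receptor NKG2A. Transcription of most of these genes is known to depend on NLRC5, which acts with the RFX factors at their promoters, and to rise with interferon.

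Promoter sequences are shown for the 2 heavy chain genes that could be matched and for the 2 peptide-handling genes that rose, since these moved in opposite directions. RefSeq promoters of build GRCh38.p14, each running from 250 bases before the gene start to 50 after it, were found for 8 of the 9 members, all but HLA-E. The windows are chr6:31357130-31357429 (HLA-B), chr6:31272043-31272342 (HLA-C) and chr6:32853655-32853954 (TAP1), all on the minus strand, and chr5:96876250-96876549 (ERAP2) on the plus strand. TAP1 and ERAP2 each have 2 start sites in that table, and the window holding an interferon-type match is the one printed. Each is given 5′ to 3′, with capitals marking matches on either strand to the interferon-type motifs: a long form, GAAA and GAAA with any 2 bases between them, and a short form, GAANNGAAA. Matches to these forms can overlap.
HLA-B: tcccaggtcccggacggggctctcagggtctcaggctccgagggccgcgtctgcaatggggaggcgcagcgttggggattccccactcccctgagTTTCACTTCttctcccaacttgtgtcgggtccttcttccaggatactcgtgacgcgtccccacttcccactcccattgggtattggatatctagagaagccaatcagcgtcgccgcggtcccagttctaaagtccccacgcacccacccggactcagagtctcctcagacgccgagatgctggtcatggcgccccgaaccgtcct
HLA-C: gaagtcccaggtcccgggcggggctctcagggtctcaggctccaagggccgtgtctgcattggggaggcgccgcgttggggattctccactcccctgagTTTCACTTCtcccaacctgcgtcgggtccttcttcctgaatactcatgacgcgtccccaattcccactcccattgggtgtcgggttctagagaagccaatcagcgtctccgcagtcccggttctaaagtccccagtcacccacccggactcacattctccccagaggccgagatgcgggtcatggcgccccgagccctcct
TAP1: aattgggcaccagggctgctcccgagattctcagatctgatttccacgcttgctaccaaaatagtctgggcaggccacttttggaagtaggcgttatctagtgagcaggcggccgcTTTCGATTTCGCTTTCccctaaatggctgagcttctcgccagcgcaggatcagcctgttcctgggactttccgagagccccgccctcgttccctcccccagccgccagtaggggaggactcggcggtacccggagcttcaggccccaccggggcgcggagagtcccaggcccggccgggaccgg
ERAP2: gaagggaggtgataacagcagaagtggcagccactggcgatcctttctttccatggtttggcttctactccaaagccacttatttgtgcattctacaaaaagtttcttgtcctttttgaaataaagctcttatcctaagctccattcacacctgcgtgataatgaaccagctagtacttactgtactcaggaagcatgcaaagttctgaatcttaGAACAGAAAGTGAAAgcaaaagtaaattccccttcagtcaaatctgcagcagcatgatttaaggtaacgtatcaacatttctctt

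The long form was found in 6 of the 8 matched members, B2M, TAP1, TAP2, TAPBP, ERAP1 and ERAP2, and in 3.57% of all 35116 promoters of that length. HLA-B and HLA-C held only the short form, at -155 and -151 from the start. That form was found in 5 members, ERAP1, ERAP2 and TAP2 being the others, and in 7.66% of all promoters. These 2 promoters were alike in 88.5% of aligned positions. The NF-κB-type motif (GGG, any 2 bases, T, any 2 bases, CC) was found in 6 members and in 22.0% of all promoters, the CRE half-site TGACG in 4 and in 24.6%, and the CCAAT box in 5 and in 34.6%, counting both strands and any start site. Members were counted by gene, whereas the share of all promoters was counted by promoter. TAP1, ERAP1 and ERAP2, with 2 start sites each, thus had more chances to match, and the 2 figures are not like for like. A match describes letters only.

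Totals ran from 38149448 to 38642181 counts in SCR-6920 samples and from 39122787 to 39749993 in DMSO samples. The 9 members took 0.282 to 0.288% of counts in SCR-6920 samples and 0.311 to 0.314% in DMSO samples. Markers of leukocytes and endothelium were scarce: PTPRC, the pan-leukocyte marker, and the endothelial markers CDH5 and VWF had 0 counts in every sample. The 7 leukocyte markers in the table summed to 0.341 to 0.708 CPM in SCR-6920 samples and 0.51 to 0.652 CPM in DMSO samples, where CPM is the count divided by the TMM-adjusted library size and scaled to a fixed total. The 7 genes of MHC class II and antigen presenting cells summed to 10.7 to 13.4 CPM in SCR-6920 samples and 11.3 to 12.5 CPM in DMSO samples. The 5 fibroblast markers, which a carcinoma line can itself express, summed to 14.7 to 18.1 CPM in SCR-6920 samples and 12.4 to 14.5 CPM in DMSO samples. The line expressed little of the ovarian epithelial list, with KRT7 at 0 and PAX8 at 0 to 2 counts, and its 9 genes in the table summed to 6.94 to 9.37 CPM in SCR-6920 samples and 4.82 to 5.89 CPM in DMSO samples. At an adjusted p under 0.05 by edgeR, 2 of 4 tested epithelial genes and 1 of 4 tested fibroblast genes were higher in SCR-6920 samples. In both lists 0 were lower, and 20.6% of all tested genes were higher. The part of these shifts in the results was not tested.

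Levels of different genes were set side by side per length, as FPKM, the length- and depth-scaled values that the authors deposited. The order depends on the length used for each gene, which was 2845 bases for B2M, 1542 for HLA-C and 1536 for HLA-B. Whether these lengths fit the transcripts of this line was not tested. Without length scaling B2M was the highest member, with mean CPM of 853 in SCR-6920 and 885 in DMSO samples, against 595 and 687 for HLA-C. By deposited FPKM, HLA-C stood highest of the 9 members, at 383.9 ± 9.2 FPKM in SCR-6920 samples and 447.2 ± 6.3 FPKM in DMSO samples (SD, n = 3 each). B2M averaged 298.6 ± 4.6 FPKM in SCR-6920 samples and 312.3 ± 5.0 FPKM in DMSO samples. HLA-B averaged 276 ± 10.3 FPKM in SCR-6920 samples and 316.3 ± 3.6 FPKM in DMSO samples. These 3 genes ranked 102 (HLA-C), 134 (B2M) and 137 (HLA-B) by mean FPKM among the 21442 genes with any count, so the class I complex itself was among the abundant transcripts of the line. HLA-B lay below B2M in every SCR-6920 sample, 264.1 to 282.7 against 295.5 to 303.9 FPKM, whereas in DMSO samples the ranges overlapped, 314.1 to 320.5 FPKM for HLA-B and 309 to 318.1 FPKM for B2M.

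**Figure D1:**
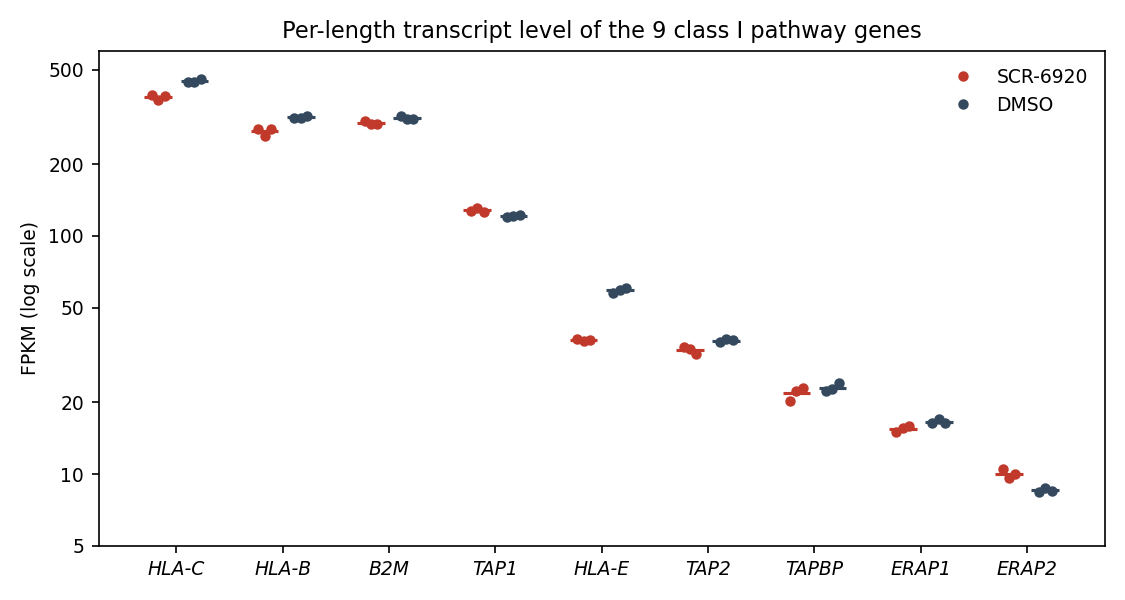
Deposited FPKM (log scale) of the 9 members, with a point for each sample and a line at the mean, SCR-6920 left of DMSO and genes ordered by their DMSO mean. Levels run from 447.2 FPKM for HLA-C down to 8.55 FPKM for ERAP2 in DMSO samples, and the widest gap between groups is at HLA-E.

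The machinery that supplies peptides was less abundant and spread over a wider range. TAP1 averaged 128.4 ± 2.4 FPKM in SCR-6920 samples and 121.3 ± 1.5 FPKM in DMSO samples, and its partner TAP2 averaged 33.2 ± 1.1 FPKM in SCR-6920 samples and 36.37 ± 0.58 FPKM in DMSO samples. HLA-E lay between them, at 36.61 ± 0.31 FPKM in SCR-6920 samples and 59.1 ± 1.6 FPKM in DMSO samples. TAPBP, ERAP1 and ERAP2 were the lowest, with SCR-6920 means of 21.9, 15.5 and 10 FPKM and DMSO means of 23.1, 16.6 and 8.55 FPKM. In SCR-6920 samples HLA-E, at 36.3 to 36.8 FPKM, stood just above TAP2, at 31.9 to 34 FPKM, with no overlap. All other neighbours in the order, apart from HLA-B and B2M in DMSO samples, were also separated in each group.

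The comparison of SCR-6920 with DMSO, which asks what PRMT5 inhibition changes, gave a fall of all 3 heavy chain genes and changes in both directions among the peptide-handling genes. With p-values from edgeR's quasi-likelihood test adjusted by Benjamini-Hochberg over the 14233 tested genes, 5 of the 9 members fell, 2 rose and 2 did not pass an adjusted p under 0.05. Across all tested genes 42% were called, 20.6% higher and 21.3% lower, so a call by itself is common here. The median log2 fold change was -0.21 for the 3 heavy chain genes and -0.066 for the 5 genes of transport, loading and trimming, beside -0.0019 over all tested genes. SCR-6920 and DMSO samples did not overlap in CPM for 8 of the 9 members, against 50.6% of all tested genes: 2 members lay higher in SCR-6920 samples, as did 24.9% of all genes, and 6 lower, as did 25.8%. In such bulk samples, less RNA in each cell and fewer cells with the transcript cannot be told apart.

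**Figure D2:**
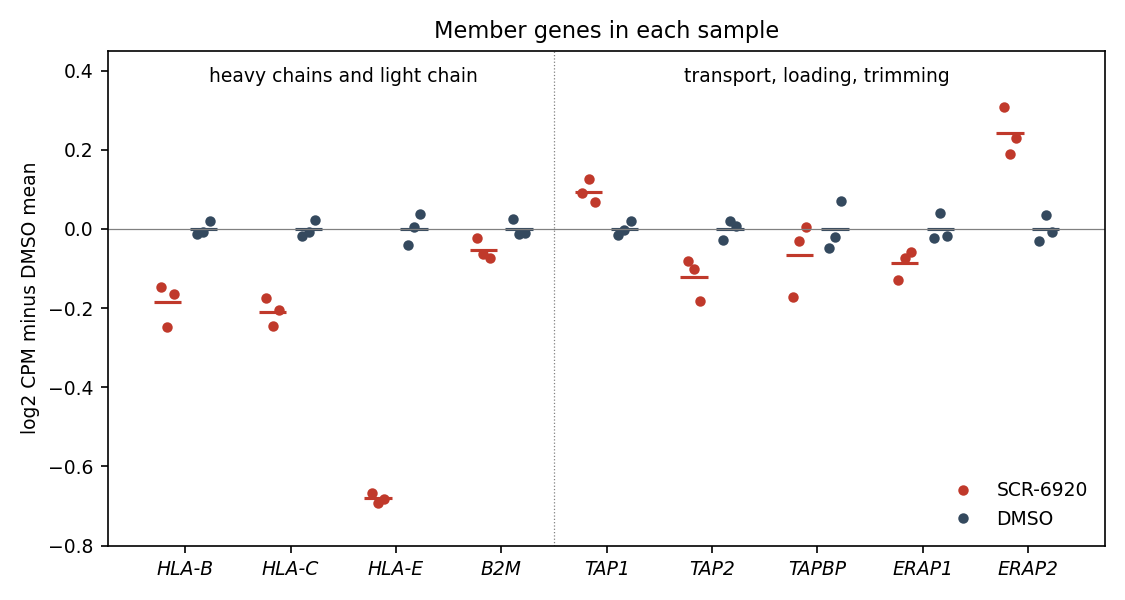
Log2 CPM of each member in every sample, less the DMSO mean of that gene, with a line at the group mean and SCR-6920 left of DMSO. HLA-E in SCR-6920 samples lies at -0.69 to -0.67, well below HLA-B and HLA-C at -0.25 to -0.15, while TAP1 and ERAP2 lie above their DMSO samples.

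HLA-E, the ligand of NKG2A, moved most. Its level was 109, 107 and 108 CPM in SCR-6920 replicates 1 to 3, against 169, 174 and 178 CPM in DMSO replicates 1 to 3. The SCR-6920 samples were tightly grouped and lay far below the lowest DMSO sample. The log2 fold change was -0.68 ± 0.04 (SE, n = 3 per group), a level 0.624 times that of DMSO, with an adjusted p of 2.07e-16 (edgeR). Of all tested genes, 90.1% had a smaller absolute log2 change and 0.302% a smaller p. HLA-E has no overlapping gene on either strand in the GENCODE v29 annotation.

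HLA-C, a ligand of killer immunoglobulin-like receptors, had 608, 579 and 596 CPM in SCR-6920 replicates 1 to 3, against 679, 684 and 698 CPM in DMSO replicates 1 to 3. For HLA-B the SCR-6920 values were 437, 408 and 432 CPM, against DMSO values of 480.1, 482 and 491 CPM. In both genes every SCR-6920 sample was below every DMSO sample, and SCR-6920 replicate 2 was the lowest of the 6. Their log2 fold changes were -0.21 ± 0.03 for HLA-C (adjusted p = 3.31e-08, edgeR) and -0.19 ± 0.03 for HLA-B (1.6e-06). The ratio of HLA-B to HLA-C FPKM was 0.719 ± 0.011 in SCR-6920 samples and 0.7073 ± 0.0022 in DMSO samples (SD, n = 3), with overlapping ranges.

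Reads of HLA genes can be shared or misplaced, so single values carry an uncertainty that these counts do not show. In the reference transcripts of GENCODE v29, 2.47% of 50-base windows of HLA-B, 6.66% of HLA-C and 4.66% of HLA-E occur unchanged in another class I heavy chain. The alleles of the A2780 line were not analysed here. When the counts of all class I heavy chain genes in the table were summed to 1 feature, the sum fell by 0.25 on the log2 scale (SE 0.02, adjusted p = 1.2e-10, edgeR), a value set mainly by the more abundant HLA-B and HLA-C. In GENCODE v29 the annotated range of HLA-B also spans HLA-C on the same strand. Of the other nonclassical chains, HLA-F had 0 counts in every sample and HLA-G 1 count in 1 sample.

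B2M, the light chain that every class I heavy chain needs to reach the surface, had 871, 848 and 841 CPM in SCR-6920 replicates 1 to 3, against 901, 877 and 878 CPM in DMSO replicates 1 to 3. All SCR-6920 values were below all DMSO values, but the gap was small. The log2 fold change was -0.053 ± 0.023 (95% interval from -0.10 to -0.0053), and it did not pass the test (adjusted p = 0.0684, edgeR). It did pass without SCR-6920 replicate 1 (log2 change -0.072, adjusted p = 0.0331) and when only library size was used for scaling (-0.065, 0.0207).

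The balance of heavy to light chain transcripts was therefore set beside the levels. Within each sample, the summed FPKM of HLA-B, HLA-C and HLA-E was 2.34, 2.27 and 2.38 times that of B2M in SCR-6920 replicates 1 to 3, against 2.56, 2.65 and 2.70 times in DMSO replicates 1 to 3. HLA-E made up 5.18, 5.38 and 5.21% of that sum in SCR-6920 samples, against 7.06, 7.24 and 7.26% in DMSO samples. The size of every FPKM ratio given here depends on the length used for each gene, such as 2845 bases for B2M. It does not show which transcript is in excess. The same lengths applied to all samples, so the ratios are read only between groups. Neither measure overlapped between the groups. With 3 samples a group, an exact two-sided permutation test cannot give a p below 0.1, which is what it gave for both.

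**Figure D3:**
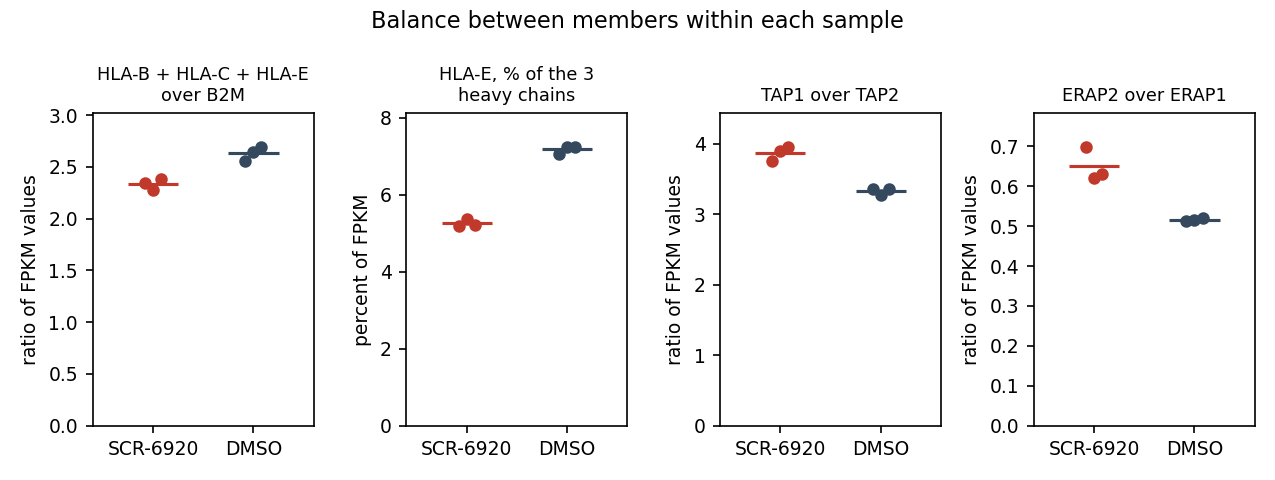
Ratios of deposited FPKM within each sample, with the mean as a line and SCR-6920 left of DMSO: the 3 heavy chains over B2M, HLA-E as a percent of the 3 heavy chains, TAP1 over TAP2 and ERAP2 over ERAP1. The first 2 are lower and the last 2 higher in SCR-6920 samples, with no overlap of the groups.

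Transcripts of the 2 subunits of the peptide transporter went apart. TAP1, which forms the dimer with TAP2, had 367, 376 and 361 CPM in SCR-6920 replicates 1 to 3, against 341, 344 and 349 CPM in DMSO replicates 1 to 3. TAP2 had 210, 207 and 196 CPM in SCR-6920 replicates 1 to 3, against 218, 225 and 223 CPM in DMSO replicates 1 to 3. The groups did not overlap for either gene, and the directions were opposite. TAP1 rose by 0.094 ± 0.027 on the log2 scale (adjusted p = 0.00557, edgeR) and TAP2 fell by 0.12 ± 0.03 (adjusted p = 0.00273). Both are changes of under 10%, at 1.07 and 0.919 times the DMSO level. The TAP1 call was lost without SCR-6920 replicate 2 (adjusted p = 0.0602) and the TAP2 call without SCR-6920 replicate 3 (0.0519).

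TAP1 exceeded TAP2 by 3.76, 3.90 and 3.96 times per length in SCR-6920 replicates 1 to 3, against 3.36, 3.28 and 3.36 times in DMSO replicates 1 to 3. Set against the heavy chains they serve, TAP1 FPKM was 0.1845 ± 0.0085 of the summed HLA-B, HLA-C and HLA-E in SCR-6920 samples and 0.14739 ± 0.00031 in DMSO samples (SD, n = 3). These ratios did not overlap between groups either, at the same smallest exact permutation p of 0.1.

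TAPBP encodes tapasin, the bridge between the transporter and the heavy chain, and was the only member whose groups overlapped. It had 81.1, 89.4 and 91.7 CPM in SCR-6920 replicates 1 to 3, against 88.3, 90.05 and 96 CPM in DMSO replicates 1 to 3. The log2 change was -0.066 ± 0.046 (95% interval from -0.16 to 0.029, adjusted p = 0.272, edgeR), so a fall of the size seen in HLA-E lies outside the interval, and one of the size seen in TAP2 lies inside it.

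The trimming enzymes also went apart. ERAP2, which prefers basic N-terminal residues and has no counterpart in mice, had 62.1, 57.2 and 58.8 CPM in SCR-6920 replicates 1 to 3, against 49.2, 51.4 and 49.9 CPM in DMSO replicates 1 to 3. It rose by 0.24 ± 0.05 on the log2 scale (adjusted p = 0.000198, edgeR), 1.18 times the DMSO level, with every SCR-6920 sample above every DMSO sample. ERAP1, the enzyme that trims longer precursors, had 154, 160.3 and 162 CPM in SCR-6920 replicates 1 to 3, against 166, 173 and 166 CPM in DMSO replicates 1 to 3. The groups did not overlap, but by little.

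ERAP1 fell by 0.087 ± 0.034 (adjusted p = 0.0399), and its call was lost without SCR-6920 replicate 1 (0.161), 2 (0.0602) or 3 (0.051) or DMSO replicate 2 (0.211). The ratio of ERAP2 to ERAP1 FPKM was 0.650 ± 0.044 in SCR-6920 samples and 0.5163 ± 0.0036 in DMSO samples (SD, n = 3), with SCR-6920 replicate 1 the highest at 0.70. In GENCODE v29, ERAP1 has 3 annotated genes on the opposite strand, CAST among them, ERAP2 has 1, TAP1 has 2 including PSMB9, and HLA-B has 3. The library kit keeps strand, per the labels' protocols, but whether reads were counted by strand is not given, so counts of these members are uncertain to that extent.

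Genes around the members were counted by function. The immunoproteasome swaps catalytic subunits of the standard proteasome for PSMB8, PSMB9 and PSMB10, which favours peptides with ends that fit class I. Of 8 tested genes of the immunoproteasome and the proteasome activators, 6 fell and 2 did not pass, with a median log2 change of -0.21. Of all tested genes 21.3% were called lower and 20.6% higher, with a median of -0.0019. PSMB9 had 58, 63.8 and 57 CPM in SCR-6920 replicates 1 to 3, against 75.2, 76.5 and 78.4 CPM in DMSO replicates 1 to 3, and fell by 0.36 ± 0.05 (adjusted p = 2.21e-07, edgeR). PSMB8 fell by 0.42 ± 0.08 and PSMB10 by 0.37 ± 0.07. The activator genes PSME1 and PSME4 fell by 0.21 ± 0.03 and 0.20 ± 0.03. Both TAP genes lie beside immunoproteasome genes in the class II region, in the RefSeq order TAP2, PSMB8, TAP1, PSMB9, so the rise of TAP1 stood between falls of its neighbours on both sides.

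The 3 catalytic subunits that the immunoproteasome replaces, PSMB5, PSMB6 and PSMB7, had log2 changes of 0.062 ± 0.028, 0.088 ± 0.037 and 0.01 ± 0.03, and 0 of 3 passed by edgeR. At an unadjusted p under 0.05 by edgeR, 2 were higher, as were 3420 of all 14233 tested genes. DESeq2 called 0 of the 3, and edgeR without SCR-6920 replicate 2 called 1 higher.

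Peptidases and signal peptide processing enzymes, which supply and destroy class I peptides and release the leader peptides that HLA-E binds, were tested in 13 cases. Of these, 5 rose and 2 fell, with a median log2 change of 0.065, beside 20.6% higher and 21.3% lower among all tested genes. Whether the group differs from other genes was not tested. LNPEP, an aminopeptidase of endosomal cross-presentation related to ERAP1 and ERAP2, rose by 0.35 ± 0.05, the cytosolic aminopeptidase gene NPEPPS by 0.19 ± 0.03, and SEC11C, a signal peptidase catalytic subunit, by 0.39 ± 0.07. The signal peptidase subunit gene SPCS3 had 176, 167 and 166 CPM in SCR-6920 replicates 1 to 3, against 247, 224 and 209 CPM in DMSO replicates 1 to 3, and fell by 0.42 ± 0.06 (adjusted p = 0.000153, edgeR). LAP3, a cytosolic leucine aminopeptidase, fell by 0.20 ± 0.03. HM13, the signal peptide peptidase that cuts leader peptides for HLA-E, had a log2 change of 0.065 ± 0.039 and did not pass (adjusted p = 0.192).

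Chaperones of the endoplasmic reticulum that fold heavy chains and build the loading complex were mostly lower. Of 9 tested, 6 fell and 3 did not pass, with a median log2 change of -0.11. For comparison, 21.3% of all tested genes were called lower and 20.6% higher, with a median of -0.0019. The smallest p-values belonged to falls of HSPA5, the Hsp70 of the endoplasmic reticulum, by 0.24 ± 0.02, P4HB, a disulfide isomerase, by 0.26 ± 0.03, and GANAB, the glucosidase II catalytic subunit, by 0.23 ± 0.02. The members that join the loading complex itself, CALR, PDIA3 and CANX, fell by 0.16 ± 0.02, 0.11 ± 0.02 and 0.082 ± 0.024 (adjusted p of 1.99e-06, 0.000569 and 0.00497, edgeR). The tapasin relative TAPBPL had a log2 change of -0.057 ± 0.11 and did not pass (adjusted p = 0.714).

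**Figure D4:**
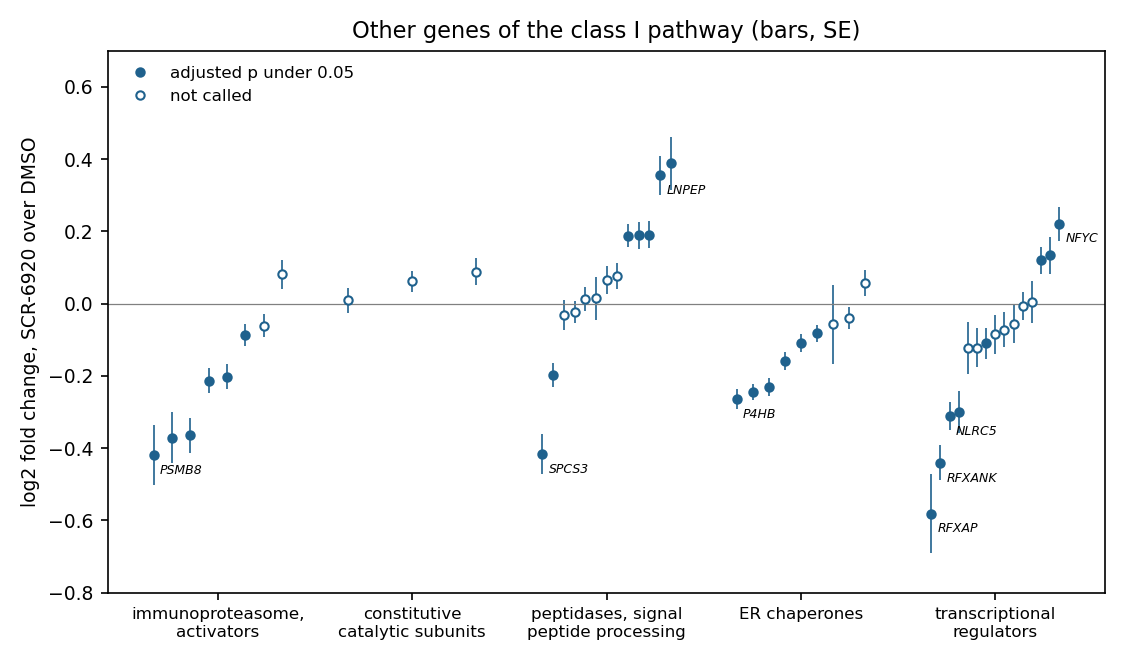
Log2 fold change (SCR-6920 over DMSO, bars are SE) of the tested genes in 5 groups of the class I pathway, less 1 regulator, filled where the adjusted p is under 0.05 by edgeR and ordered by size within a group. The immunoproteasome group and the endoplasmic reticulum chaperones lie mostly below 0, down to -0.42 for PSMB8, and the regulators reach -0.58 for RFXAP.

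Among transcriptional regulators of class I genes, NLRC5, the class I transactivator, had 107, 108 and 115 CPM in SCR-6920 replicates 1 to 3, against 132, 140.1 and 137 CPM in DMSO replicates 1 to 3. All SCR-6920 samples were below all DMSO samples, and NLRC5 fell by 0.31 ± 0.04 (adjusted p = 6.09e-08, edgeR). RFXANK, a subunit of the RFX complex that NLRC5 joins, had 48, 50.6 and 47.1 CPM in SCR-6920 replicates 1 to 3, against 64.8, 66.7 and 66.1 CPM in DMSO replicates 1 to 3, a fall of 0.44 ± 0.05 (adjusted p = 8.23e-09). RFXAP, another subunit, fell by 0.58 ± 0.11 (5.49e-05). The DNA-binding subunit RFX5 rose by 0.12 ± 0.04 (0.00824), a call lost without SCR-6920 replicate 3 (0.0507) or DMSO replicate 2 (0.0659), and by limma with no FPKM filter (0.0618). Thus the subunits of this complex did not move in 1 direction.

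Of the 16 regulators tested, 6 fell and 3 rose, with a median log2 change of -0.098, beside 21.3% lower and 20.6% higher among all tested genes. STAT2, a transcription factor of the type I interferon response, fell by 0.30 ± 0.06 (adjusted p = 0.000125, edgeR). IRF1, an interferon-induced activator of class I promoters, had a log2 change of -0.0071 ± 0.039 and did not pass (0.905). The CCAAT-binding subunit gene NFYC rose by 0.22 ± 0.05 (0.000248). RELA, an NF-κB subunit, rose by 0.13 ± 0.05 (0.0398), but lost its call without any 1 of SCR-6920 replicates 1 to 3 (0.0529, 0.14 and 0.113) or DMSO replicates 2 and 3 (0.212 and 0.0611). The RELA call was also lost with library size only (0.0626), by DESeq2 (0.0583) and by limma on log2 FPKM with a pseudocount of 1 (0.0557), of 0.1 (0.0556) or of 1 with no FPKM filter (0.118). Only 1 regulator rose without DMSO replicate 2 or without SCR-6920 replicate 3.

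Class I-like molecules, several of which also pair with B2M or signal stress to natural killer cells, passed the low-count filter in 8 of 14 cases. Of these 8, 3 rose and 1 fell, with a median log2 change of 0.14, a count near the 42% called among all tested genes and no result about the group. MICA, a ligand of the activating receptor NKG2D, had 27.2, 24.4 and 25.6 CPM in SCR-6920 replicates 1 to 3, against 19.7, 20.9 and 22.9 CPM in DMSO replicates 1 to 3, and rose by 0.28 ± 0.08 (adjusted p = 0.00322, edgeR). ULBP1, another NKG2D ligand, had 16, 15 and 25 counts in SCR-6920 samples against 7, 4 and 5 counts in DMSO samples (log2 change 1.83 ± 0.62, adjusted p = 0.016), and lost its call without SCR-6920 replicate 3 (0.0965), DMSO replicate 2 (0.0639) or DMSO replicate 3 (0.0554). PROCR, the endothelial protein C receptor, which does not pair with B2M, had 3.77, 4.48 and 4.93 CPM in SCR-6920 replicates 1 to 3, against 2.63, 1.81 and 1.58 CPM in DMSO replicates 1 to 3, and rose by 1.13 ± 0.21 (4.87e-05). FCGRT, the heavy chain of the neonatal Fc receptor and a B2M partner, fell by 0.42 ± 0.11 (0.00207).

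Of 11 tested genes of class I export and turnover, 4 rose and 1 fell, with a median log2 change of 0.10, again near the 42% called among all tested genes. MARCHF4, a ubiquitin ligase known to lower surface class I, rose by 0.97 ± 0.22 (adjusted p = 0.000586, edgeR) at 4.72 ± 0.30 CPM in SCR-6920 samples and 2.41 ± 0.97 CPM in DMSO samples (SD, n = 3). The COPII coat gene SEC24B and its GTPase gene SAR1B rose by 0.23 ± 0.05 and 0.28 ± 0.06, and the coat gene SEC23A fell by 0.18 ± 0.04.

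The genes whose 6 values lay nearest to those of HLA-E came from other pathways. Likeness was the root mean square difference of log2 CPM over the 6 samples after subtracting the DMSO mean of each gene, and 9969 protein-coding genes averaging 5 CPM or more were searched. The nearest were APEH, an acylpeptide hydrolase, at a distance of 0.0088, CAD, of pyrimidine synthesis, at 0.011, PYGL, a glycogen phosphorylase, at 0.023, MRPL37, of the mitochondrial ribosome, at 0.024, and POLD1, a DNA polymerase delta subunit, at 0.030. Another class I gene was not among these 5.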

How the data were processed

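The authors deposited raw counts per gene and FPKM values for the 6 samples. Per the submitters' processing notes, the tools were HISAT2 and HTSeq and the build was GRCm38, which is a mouse build, although the genes are human. Tool versions, annotation and strand setting are not given, so the files' coordinates were not used. The deposited FPKM values equalled the deposited counts scaled by sample total and 1 length per gene for all 21442 genes with a count (relative tolerance 1e-06). Samples were grouped by title. No replicate pair of a group agreed within counting noise, with 3.74 to 9.25 as chi-square per gene.

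Counts were analysed with edgeR 4.0.16 in R 4.3.3: filterByExpr kept 14233 genes, all 9 members included, TMM scaled the libraries (factors 0.993 to 1.01), and a robust quasi-likelihood model of group alone was fitted to the 6 samples, with Benjamini-Hochberg adjustment over all tested genes. The SE was derived from each log2 change and its F. The same steps were run on simulated data with far fewer changed genes and the same dispersion for every gene. That run checks the steps, not these results. Alternatives used DESeq2 1.42.0, limma 3.58.1 on log2(FPKM + 1) or log2(FPKM + 0.1), other scalings and filters, a replicate block and leaving out each replicate.

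The members and gene lists were chosen with earlier results of these data known. Named were the members, NLRC5, in each list up to 3 risen and 3 fallen genes of smallest p, and the 5 genes nearest to HLA-E. PSMB5 to PSMB8, PSMB10, CALR, PDIA3, CANX, TAPBPL, HM13, RFXAP, STAT2 and IRF1 were added after their values were seen. A few genes covered by this rule were left out of the text. Motifs were searched in RefSeq promoters of GRCh38.p14, and overlaps in GENCODE v29.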

Additional observations from a re-analysis of the deposited data

How the results depend on the processing

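The falls of HLA-B, HLA-C and HLA-E and the rise of ERAP2 kept their direction and call in all alternatives run, as TAPBP kept its lack of one. Without 1 replicate, the log2 change of HLA-E ran from -0.70 to -0.66, that of HLA-C from -0.23 to -0.19, that of HLA-B from -0.21 to -0.16 and that of ERAP2 from 0.205 to 0.27; summing the class I heavy chain genes gave -0.25 for all 3 heavy chains. The calls of smaller changes depended on the processing, and the cause was not tested. ERAP1 no longer passed without a low-count filter (-0.083), by DESeq2 (-0.085), by limma with pseudocounts of 1 (-0.093, the same without an FPKM filter) and 0.1 (-0.098), or at an adjusted p under 0.01 (-0.087). B2M passed with library size only (-0.065) and by limma with the FPKM filter (-0.064 and -0.065). Without 1 replicate, ERAP1 ran from -0.10 to -0.067, B2M from -0.072 to -0.04, TAP1 from 0.076 to 0.11 and TAP2 from -0.15 to -0.092, and 1 to 2 members rose and 3 to 5 fell. The replicate block left 2 members higher and 5 lower and changed no call among the 9, with 6144 genes changed against 5976. Deviations of samples sharing a number correlated at 0.117, 0.0293 and 0.0879, and SCR-6920 replicate 2 correlated best with another number, so the shared numbers were not taken as pairs. Depth limits ULBP1, with 15 to 25 counts in SCR-6920 samples and 4 to 7 in DMSO samples.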
